A study of Mus musculus with 16 samples.

Results

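Serine synthesis and one-carbon metabolism was followed through 10 genes of the 55492 listed in the deposited table: *Phgdh*, *Psat1*, *Psph*, *Shmt1*, *Shmt2*, *Mthfd1*, *Mthfd1l*, *Mthfd2*, *Aldh1l1* and *Aldh1l2*. They were chosen by name, as the enzymes of the pathway, and all 10 were found and passed the filter on low values. RNA was sequenced from left ventricles of 16 male C57BL/6 mice aged 8 to 12 weeks, one library per mouse. PKM2fl/fl mice carry an intact, loxP-flanked exon specific to the PKM2 isoform of pyruvate kinase and served as controls. PKM2-/- mice lack that exon in every cell, after a germline deletion with a Cre driven by the CMV promoter, and the Cre allele had been bred out. Each genotype was sampled unoperated (baseline, n = 2), 3 days after sham surgery (n = 3) and 3 days after myocardial infarction by permanent ligation of the left anterior descending artery (MI, n = 3).

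The serine synthesis pathway branches off glycolysis at 3-phosphoglycerate, upstream of the step that pyruvate kinase catalyzes, and serine in turn binds and activates PKM2. Serine hydroxymethyltransferases then pass a carbon of serine to folate, and the MTHFD enzymes carry it between oxidation states in parallel mitochondrial and cytosolic arms that meet through formate. The ALDH1L enzymes burn off surplus formyl groups as carbon dioxide and make NADPH. The folate carbon units feed purine and thymidylate synthesis and the methionine cycle, and the mitochondrial arm is known for its high activity in dividing cells.

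Library depth ranged from 20623769 to 71855101 reads, with 16 to 1489 reads on a single one of the 10 genes. Loci related to rRNA took 15.8% to 46.1% of the reads, and in sham hearts 28.6% to 46.1% in PKM2-/- against 15.8% to 27.8% in PKM2fl/fl. *Pkm*, the targeted gene, had 7779 to 12076 normalized counts in PKM2fl/fl and 10120 to 16113 in PKM2-/- libraries, and none of the genotype comparisons of it passed the test. These gene-level counts add up both splice forms, so they do not check the deleted exon. The 8 cardiomyocyte markers, led by *Myh6*, were abundant in every library, as the labelled tissue requires.

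The promoters of the genes that rose after MI, except *Aldh1l2*, are shown first, because their letters can be set beside the shared rise. RefSeq (GRCm38.p6) gave promoter windows for 9 of the 10 genes, and 250 bases before a RefSeq start are printed for *Phgdh* (chr3:98339970-98340219, minus strand), *Psat1* (chr19:15925060-15925309, minus strand, the upstream one of its starts), *Mthfd2* (chr6:83317605-83317854, minus strand) and *Mthfd1l* (chr10:3972825-3973074, plus strand). The *Mthfd2* window lies inside the gene's annotated span (chr6:83305704-83326011), and that of *Mthfd1l* runs past the outermost annotated start at 3972892, so both belong to RefSeq starts inside the gene. Capitals mark a CCAAT box (CCAAT, or ATTGG on the other strand) or a GC box (GGGCGG or CCGCCC).
Phgdh: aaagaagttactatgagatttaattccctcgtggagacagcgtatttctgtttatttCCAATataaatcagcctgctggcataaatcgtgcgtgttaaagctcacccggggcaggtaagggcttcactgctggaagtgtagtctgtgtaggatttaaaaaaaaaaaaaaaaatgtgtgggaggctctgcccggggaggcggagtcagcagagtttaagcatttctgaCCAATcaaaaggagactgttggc
Psat1: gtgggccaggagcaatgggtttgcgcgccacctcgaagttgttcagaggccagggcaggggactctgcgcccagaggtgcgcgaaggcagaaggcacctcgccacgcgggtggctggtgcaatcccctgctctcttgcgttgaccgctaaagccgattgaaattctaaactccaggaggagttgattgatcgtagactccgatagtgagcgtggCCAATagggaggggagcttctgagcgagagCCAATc
Mthfd2: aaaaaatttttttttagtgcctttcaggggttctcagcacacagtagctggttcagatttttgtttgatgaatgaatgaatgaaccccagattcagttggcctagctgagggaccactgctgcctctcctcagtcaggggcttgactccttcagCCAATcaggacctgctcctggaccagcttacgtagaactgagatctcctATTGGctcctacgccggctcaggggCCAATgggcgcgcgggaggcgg
Mthfd1l: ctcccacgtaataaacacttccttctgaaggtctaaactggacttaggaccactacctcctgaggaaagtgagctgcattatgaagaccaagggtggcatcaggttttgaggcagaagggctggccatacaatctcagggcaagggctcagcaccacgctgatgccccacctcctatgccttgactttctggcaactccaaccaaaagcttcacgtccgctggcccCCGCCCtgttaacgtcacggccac

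The printed windows of *Phgdh*, *Psat1* and *Mthfd2* held 2, 2 and 3 CCAAT boxes, and that of *Mthfd1l* held none but 1 GC box. The downstream window of *Psat1* (chr19:15924623-15924872), not printed, held 0 CCAAT boxes and 1 GC box. A CCAAT box stands in 33.8% and a GC box in 32.7% of 32817 mouse promoter windows of this length. Of the 9 genes, 7 had at least 1 CCAAT box in a window, a count by gene, whereas the shares above are by window. Among them were *Psph* and *Mthfd1*, which did not pass the test after MI, and *Shmt1* and *Aldh1l1*, which fell. *Aldh1l2*, which rose, had no window. Neither TGATGNAA, the core of the element bound by the amino acid response factor ATF4 (in 3.45% of windows), nor the E-box CACGTG (in 6.02%) was found on either strand in any of these windows. A match or its absence describes only these letters.

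Set per kilobase of transcript, *Shmt2* and *Mthfd1* led the pathway in the sham hearts of PKM2fl/fl mice, at 206 ± 29.2 and 195 ± 20.7 normalized counts per kilobase (SD, n = 3), and did not differ beyond their spread. *Shmt1* came next at 89.9 ± 7.92. The levels of *Psph* (56.1 ± 5.61) and *Mthfd1l* (47.0 ± 5.95) overlapped, as did those of *Mthfd2* (37.1 ± 4.43) and *Aldh1l1* (34.1 ± 2.11). *Aldh1l2* (29.0 ± 7.82), which also overlapped *Aldh1l1*, *Psat1* (23.7 ± 5.35) and *Phgdh* (20.1 ± 2.94) closed the order with overlapping ranges, and those of the first steps of serine synthesis stood last. After MI in PKM2fl/fl the order on this scale was *Shmt2* (227 ± 36.8), *Mthfd1* (191 ± 15.8), *Mthfd1l* (177 ± 42.5), *Mthfd2* (130 ± 7.93), *Psat1* (130 ± 37.3), *Phgdh* (71.7 ± 19.8), *Aldh1l2* (67.9 ± 3.98), *Psph* (67.4 ± 13.6), *Shmt1* (60.5 ± 5.48) and *Aldh1l1* (17.2 ± 2.05). Every neighbouring pair in that order overlapped except *Mthfd1l* above *Mthfd2*, *Psat1* above *Phgdh*, and *Shmt1* above *Aldh1l1*.

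**Figure D1:**
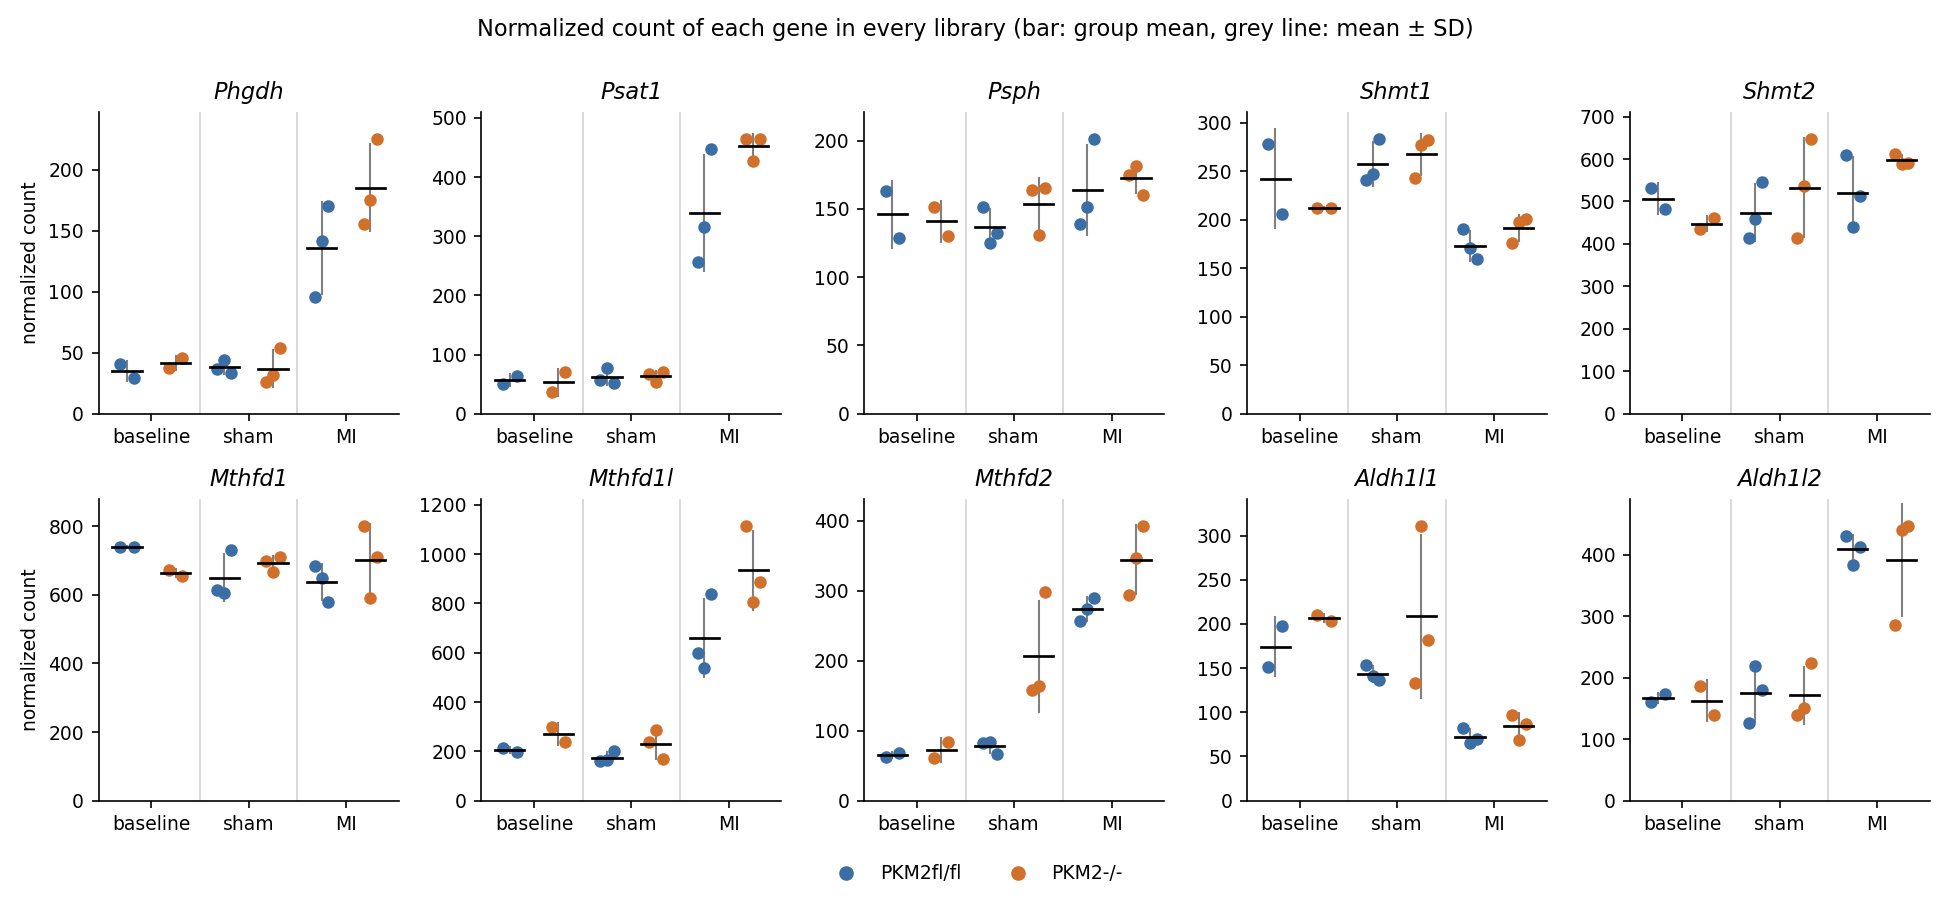
Normalized count (y axis, linear, from 0) of each of the 10 genes in the 16 libraries, by condition and genotype; points are libraries, black bars group means and grey lines mean ± SD. *Phgdh*, *Psat1*, *Mthfd1l* and *Aldh1l2* rise in the MI libraries of both genotypes, and *Mthfd2* lies between 158 and 298 in PKM2-/- sham hearts against 67.2 to 84.2 in PKM2fl/fl sham hearts.

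The comparison of MI with sham asked how the infarcted ventricle at day 3 differs from an operated, uninjured one. In both genotypes *Phgdh*, *Psat1*, *Mthfd1l*, *Mthfd2* and *Aldh1l2* rose, *Shmt1* and *Aldh1l1* fell, and *Psph*, *Shmt2* and *Mthfd1* did not pass the test. In PKM2fl/fl hearts the 5 genes that rose stood against 24.8% of all 20576 genes tested, and the 2 that fell against 25.3%. The shares of all genes in PKM2-/- hearts, where the counts were again 5 and 2, were 28.7% higher and 28.1% lower. The median log2 fold change over the 10 genes was 0.75 in PKM2fl/fl and 0.49 in PKM2-/-, and over all genes tested 0.00 and 0.01. Tests were limma-trend on log2 of the normalized count plus 1 with Benjamini-Hochberg adjustment over all genes, called at an adjusted p under 0.05, and every fold change is on that scale. With a change of at least 2-fold required as well, 5 genes were called higher and 0 lower in PKM2fl/fl (12.4% and 11.1% of all genes), and 4 higher and 1 lower in PKM2-/- (14.5% and 14.3%). edgeR and DESeq2 on the recovered reads each called 5 higher and 2 lower in both genotypes. Scaling to total reads gave 5 higher and 1 lower in PKM2fl/fl and 6 higher and 0 lower in PKM2-/-, while moving the median of all genes by -0.18 and 0.52. Total reads less the rRNA-related loci gave 5 higher and 2 lower, and 8 higher and 1 lower, at median shifts of 0.12 and 0.36. The shares of all genes called with edgeR, DESeq2 or these scalings are not given here, so those counts stand without a background.

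*Phgdh*, the dehydrogenase that commits 3-phosphoglycerate to serine, had 36.4, 44.1 and 33.3 normalized counts in PKM2fl/fl sham hearts and 95.8, 142 and 170 after MI. PKM2-/- sham hearts had 25.7, 31.3 and 53.9, and PKM2-/- MI hearts 156, 175 and 225. No MI library overlapped a sham library in either genotype, and baseline hearts, at 29.2 to 45.8, lay in the sham range. The log2 fold change was 1.78 ± 0.29 (SE, adjusted p = 0.000117) in PKM2fl/fl and 2.34 ± 0.29 (adjusted p = 6.94e-06) in PKM2-/-.

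*Psat1*, the aminotransferase of the next step, rose most of the 10 in both genotypes, 5.33-fold in PKM2fl/fl and 7.04-fold in PKM2-/-. Its normalized counts in PKM2fl/fl went from 57.0, 78.0 and 51.5 in sham to 257, 315 and 447 in MI hearts. In PKM2-/- they went from 67.5, 53.5 and 70.1 to 465, 427 and 465. Infarcted hearts thus lay far above all others, the baseline hearts being at 37.3 to 69.6. The log2 fold changes were 2.42 ± 0.25 (adjusted p = 2.48e-06) and 2.82 ± 0.25 (adjusted p = 4.5e-07).

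*Psph*, the phosphatase that releases free serine at the last step, stayed near its sham level. PKM2fl/fl hearts had 152, 125 and 132 normalized counts after sham and 139, 151 and 201 after MI, and the groups overlapped. PKM2-/- hearts had 164, 131 and 165 after sham and 175, 182 and 160 after MI, again with overlap. The 95% intervals of the log2 difference, -0.11 to 0.61 and -0.19 to 0.54, do not reach a 2-fold change in either direction. The exons of *Psph* share 465 bases with *Cct6a* on the opposite strand (GENCODE M39), and *Cct6a*, a chaperonin subunit, rose by log2 0.39 ± 0.12 in PKM2fl/fl (adjusted p = 0.0164) and 0.55 ± 0.12 in PKM2-/- (adjusted p = 0.00147). The strand setting of the counting is not given in the sources used here, so reads of such overlapping pairs cannot be told apart.

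*Shmt1*, the cytosolic serine hydroxymethyltransferase, fell modestly. Normalized counts in PKM2fl/fl were 242, 247 and 283 after sham and 190, 170 and 159 after MI. In PKM2-/- they were 243, 277 and 283 against 176, 198 and 200. All 6 MI libraries lay below all 6 sham libraries. The log2 fold change was -0.57 ± 0.14 (adjusted p = 0.00277) in PKM2fl/fl and -0.48 ± 0.14 (adjusted p = 0.00727) in PKM2-/-, but with scaling to total reads it was 0.03 in PKM2-/- (adjusted p = 0.945). With total reads less the rRNA-related loci it was -0.13 in PKM2-/- (adjusted p = 0.497), and with total reads it was -0.75 in PKM2fl/fl (adjusted p = 0.0637).

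*Shmt2*, its mitochondrial counterpart, had 415, 459 and 547 normalized counts in PKM2fl/fl sham hearts and 609, 440 and 513 after MI. In PKM2-/- hearts the values were 415, 535 and 647 after sham and 612, 589 and 591 after MI. The groups overlapped in both genotypes, and the 95% intervals of the log2 difference ran from -0.20 to 0.46 and from -0.14 to 0.52. *Shmt2* shares 727 exon bases with *Ndufa4l2* on the opposite strand, which rose by log2 0.84 ± 0.17 in PKM2fl/fl and 0.63 ± 0.17 in PKM2-/- (adjusted p = 0.000791 and 0.00538).

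*Mthfd1*, the trifunctional cytosolic enzyme, was the steadiest. Its log2 differences of -0.03 ± 0.11 in PKM2fl/fl and 0.01 ± 0.11 in PKM2-/- had 95% intervals of -0.27 to 0.22 and -0.23 to 0.25. Normalized counts ranged from 606 to 730 in PKM2fl/fl sham and from 580 to 683 in PKM2fl/fl MI hearts, with 666 to 710 and 591 to 801 in PKM2-/-. With total reads less the rRNA-related loci, *Mthfd1*, *Psph* and *Shmt2* passed the test in PKM2-/- at log2 0.36, 0.52 and 0.54 (adjusted p = 0.0478, 0.0316 and 0.00294), beside the median shift of all genes of 0.36, and with total reads *Shmt2* passed at 0.70 (adjusted p = 0.0419).

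*Mthfd1l*, which releases formate from mitochondria, rose 3.71-fold in PKM2fl/fl and 4.09-fold in PKM2-/-. In PKM2fl/fl its normalized counts were 160, 163 and 200 after sham and 600, 538 and 837 after MI. PKM2-/- hearts went from 240, 287 and 167 to 1114, 805 and 886. The log2 fold change was 1.89 ± 0.20 (adjusted p = 3.74e-06) and 2.03 ± 0.20 (adjusted p = 1.24e-06), and the groups did not overlap.

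*Mthfd2*, the mitochondrial dehydrogenase and cyclohydrolase, rose in both genotypes from unequal sham levels. PKM2fl/fl sham hearts had 82.3, 84.2 and 67.2 normalized counts and MI hearts 257, 274 and 290. PKM2-/- sham hearts had 158, 163 and 298 and MI hearts 294, 346 and 392. One PKM2-/- sham heart therefore overlapped the MI range, while the PKM2fl/fl groups were far apart. The log2 fold change was 1.81 ± 0.22 (adjusted p = 1.08e-05) in PKM2fl/fl and 0.79 ± 0.22 (adjusted p = 0.00632) in PKM2-/-.

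The 10-formyltetrahydrofolate dehydrogenases moved apart. *Aldh1l1*, the cytosolic one, had 153, 141 and 136 normalized counts in PKM2fl/fl sham and 81.9, 65.4 and 69.5 in MI hearts, and in PKM2-/- 133, 311 and 181 against 97.3, 68.6 and 86.6. It was lower in every MI heart, by log2 -0.98 ± 0.24 (adjusted p = 0.00351) and -1.22 ± 0.24 (adjusted p = 0.000537). With scaling to total reads the fall in PKM2-/- was -0.72 and no longer passed (adjusted p = 0.085). *Aldh1l1* shares 105 exon bases with *Gm45901* on the same strand, which had log2 changes of -1.88 and -3.235. *Aldh1l2*, the mitochondrial one, had 126, 220 and 180 in PKM2fl/fl sham and 431, 384 and 413 in MI hearts, and in PKM2-/- 140, 150 and 224 against 286, 441 and 447. It was higher in every MI heart, by log2 1.25 ± 0.23 (adjusted p = 0.000324) and 1.19 ± 0.23 (adjusted p = 0.000389).

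**Figure D2:**
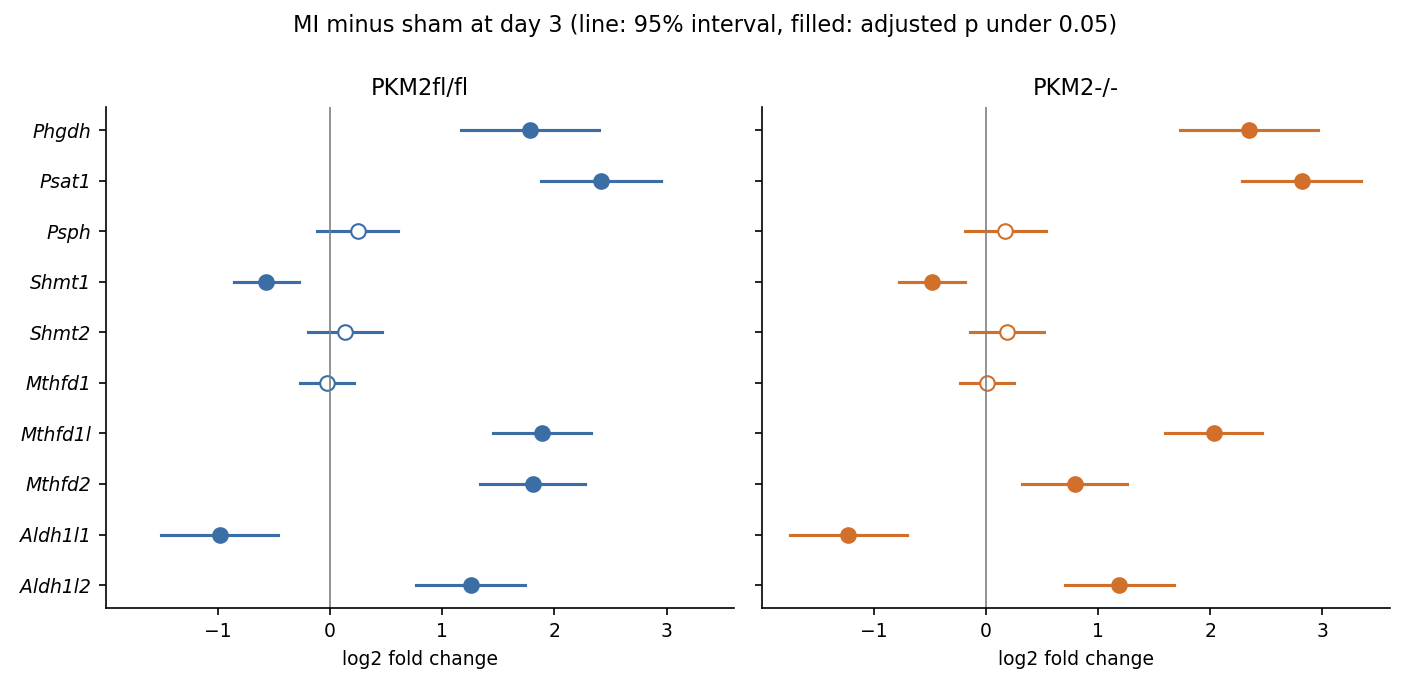
Log2 fold change of MI against sham (x axis) for each gene (y axis) in PKM2fl/fl and PKM2-/- hearts; lines are 95% intervals, and filled points have an adjusted p under 0.05. *Psat1* lies farthest right at 2.42 and 2.82, *Aldh1l1* farthest left at -0.98 and -1.22, and *Mthfd2* sits at 1.81 in PKM2fl/fl but 0.79 in PKM2-/-.

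Tissue composition moved with MI. The summed normalized counts of 8 cardiomyocyte markers went from 854786 to 970487 in PKM2fl/fl sham down to 160870 to 382488 in MI hearts, and from 759382 to 903262 down to 173244 to 246397 in PKM2-/-. Over the same step the sum of 6 proliferation markers went from 606 to 1118 up to 7136 to 9621 in PKM2fl/fl and from 677 to 1011 up to 8822 to 10452 in PKM2-/-. The 5 myofibroblast markers went from 3965 to 7354 up to 65909 to 101024 in PKM2fl/fl, and the 6 macrophage and monocyte markers from 5106 to 9949 up to 20513 to 36111. In bulk tissue, fewer cells of a type and less RNA per cell cannot be told apart, and the part of these shifts in the pathway's changes was not tested.

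A ratio within a library does not depend on how libraries are scaled. The ratio of mitochondrial to cytosolic enzyme transcripts was higher after MI for each of the 3 pairs, and enzyme levels were not measured here. *Shmt2* to *Shmt1* was 1.72 to 1.93 in PKM2fl/fl sham and 2.58 to 3.21 in MI hearts, and 1.71 to 2.29 against 2.94 to 3.46 in PKM2-/-. *Mthfd1l* to *Mthfd1* went from 0.262 to 0.275 up to 0.83 to 1.44 in PKM2fl/fl and from 0.237 to 0.432 up to 1.24 to 1.39 in PKM2-/-. *Aldh1l2* to *Aldh1l1* went from 0.821 to 1.56 up to 5.21 to 5.86, and from 0.485 to 1.24 up to 2.92 to 6.36. In all 6 of these comparisons every MI heart lay above every sham heart. The two-sided exact permutation p was 0.1, the smallest that 3 against 3 can give, and 0.25 after adjustment over the 15 ratio comparisons, so that test cannot reach 0.05 here. In log2 units the differences were 0.70, 1.92 and 2.24 in PKM2fl/fl and 0.67, 2.02 and 2.41 in PKM2-/-. Between genotypes the log2 ratios differed by -0.47 to 0.53 within a condition, with exact permutation p-values from 0.333 to 1. The lowest, 0.333, is the smallest that 2 against 2 can give, and belongs to *Mthfd1l* to *Mthfd1* at baseline, at 0.364 to 0.449 in PKM2-/- and 0.268 to 0.291 in PKM2fl/fl without overlap. Such p-values do not show that the ratios were equal.

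**Figure D3:**
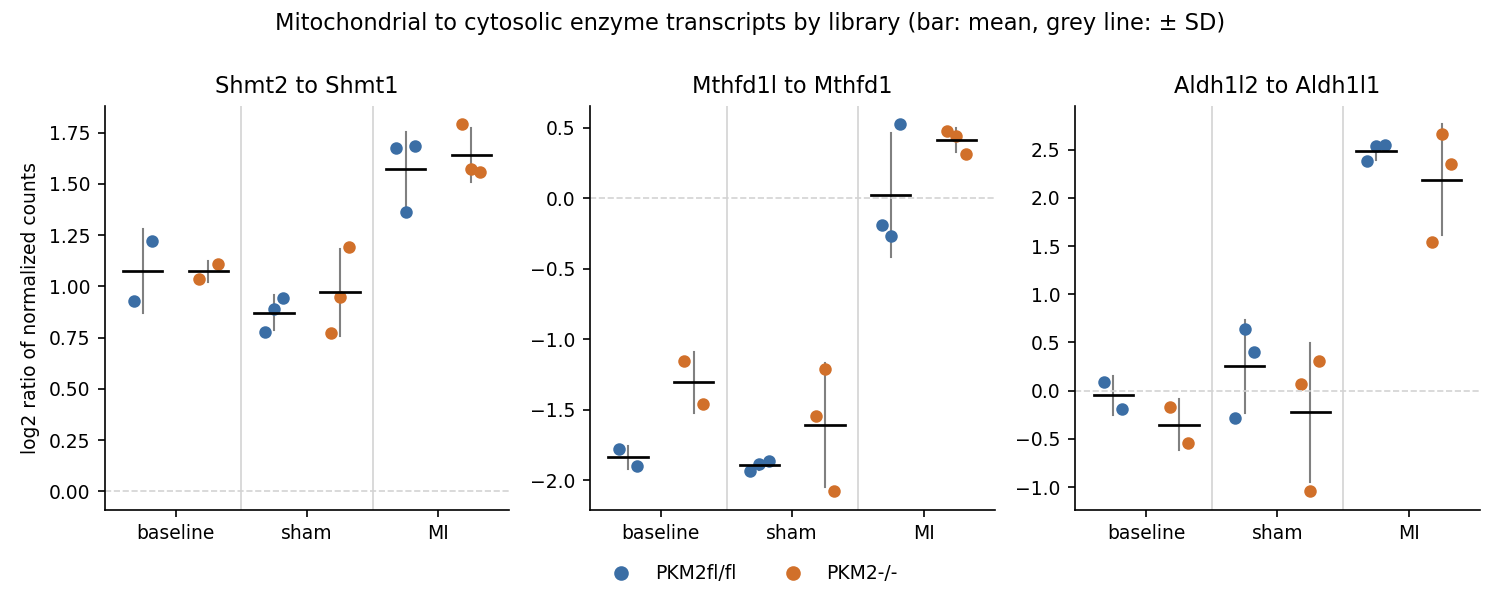
Log2 ratio of mitochondrial to cytosolic enzyme transcripts (y axis) in each library, by condition and genotype; points are libraries, black bars means and grey lines ± SD. All MI points lie above all sham points of the same genotype in each of the 3 panels, and *Aldh1l2* to *Aldh1l1* shows the longest step, 2.24 in PKM2fl/fl and 2.41 in PKM2-/-.

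The comparison of genotypes asked whether loss of PKM2, an enzyme regulated by serine, goes with other levels of the serine pathway. None of the 10 genes passed the limma-trend test at baseline, after sham or after MI, and none for the genotype effect averaged over the conditions. In those comparisons 0.00972%, 0.00972%, 0.967% and 0.102% of all genes were called. At an unadjusted p under 0.05 the counts were 0, 1, 1 and 2 of 10. Here and below, such unadjusted counts are given without the share of all genes at that level. edgeR called 0 in each, and DESeq2 called 1 after sham and 1 in the average, both times *Mthfd2*. The shares of all genes above are those of limma-trend. Those of edgeR and DESeq2 are not given here, so these DESeq2 calls stand without a background. The comparisons of PKM2-/- with PKM2fl/fl within sham and within MI use the same libraries as the comparisons of MI with sham.

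*Mthfd2* after sham showed the widest genotype difference, with all 3 PKM2-/- hearts (158, 163 and 298 normalized counts) above all 3 PKM2fl/fl hearts (67.2 to 84.2). The log2 difference was 1.34 ± 0.22, with a 95% interval of 0.87 to 1.81, and missed the threshold at an adjusted p of 0.0584. Without the highest heart, PKM2-/- sham replicate 3, it was 1.04 and passed (adjusted p = 0.0305), and it also passed without PKM2fl/fl MI replicate 3 (adjusted p = 0.046). The adjusted p ran from 1.96e-05 with DESeq2 to 0.221 over 26 alternatives, and was under 0.05 in 4 of them. At baseline the genotypes overlapped, with 62.0 and 68.3 against 60.6 and 84.3 normalized counts (log2 0.13, 95% interval -0.44 to 0.71). After MI every PKM2-/- heart was above every PKM2fl/fl heart, 294 to 392 against 257 to 290, by log2 0.32 with an interval of -0.15 to 0.79.

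In sham hearts the PKM2-/- ranges of summed cardiomyocyte (759382 to 903262), neutrophil (897 to 1150) and proliferation markers (677 to 1011) overlapped those of PKM2fl/fl (854786 to 970487, 208 to 1217 and 606 to 1118). None of the tested markers of these 3 lists passed the genotype test after sham, and the medians of their log2 differences were -0.07, 0.69 and -0.04. The rRNA-related share, in contrast, was higher in all PKM2-/- sham hearts, as given above. It was also 39.7% to 43.9% in PKM2-/- against 17.3% to 22.1% in PKM2fl/fl baseline hearts, where *Mthfd2* differed by log2 0.13, and its part in the *Mthfd2* difference was not tested.

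Sham surgery itself was compared with no surgery. In PKM2-/- hearts *Mthfd2* rose by log2 1.45 ± 0.25 (adjusted p = 0.00449), from 60.6 and 84.3 normalized counts at baseline, and was the 1 gene of the 10 called, against 5.14% of all genes. Without PKM2-/- baseline replicate 1 its change was 1.22 and missed the threshold (adjusted p = 0.0535). In PKM2fl/fl hearts none of the 10 was called by limma-trend, edgeR or DESeq2, and none had an unadjusted p under 0.05, against 0.19% of all genes called; *Mthfd2* there changed by 0.25, with a 95% interval of -0.28 to 0.77. The difference between these *Mthfd2* changes was 1.20 ± 0.35 (adjusted p = 0.517), and 0% of all genes passed that test, which was added after the values were seen. The MI step of *Mthfd2* was smaller in PKM2-/- than in PKM2fl/fl by 1.01 ± 0.31 on the log2 scale, at an unadjusted p of 0.00529 and an adjusted p of 0.444. For this interaction limma-trend called none of the 10, with 1 at an unadjusted p under 0.05, and edgeR and DESeq2 called none. Of all genes 0% passed. For *Mthfd2*, the PKM2-/- sham rise, the genotype difference after sham and the step differences share the same PKM2-/- sham hearts. They are not independent of each other.

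*Mthfd1l* had higher group means in PKM2-/- at baseline, after sham and after MI. Baseline hearts had 301 and 238 normalized counts in PKM2-/- and 215 and 198 in PKM2fl/fl, which did not overlap, while the sham hearts did (240, 287 and 167 against 160, 163 and 200). After MI the PKM2-/- hearts had 1114, 805 and 886 against 600, 538 and 837, with 1 PKM2fl/fl heart inside the PKM2-/- range. The log2 differences were 0.37, 0.38 and 0.52 with intervals of -0.16 to 0.91, -0.06 to 0.81 and 0.08 to 0.95, and none passed after adjustment (adjusted p = 1, 0.581 and 0.211). Without PKM2fl/fl MI replicate 3, the highest of its group, the difference after MI was 0.70 and passed (adjusted p = 0.0382).

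None of the remaining genes passed between genotypes. *Phgdh* and *Psat1* were higher in PKM2-/- MI hearts by log2 0.47 and 0.45, with 95% intervals of -0.15 to 1.08 and -0.08 to 0.98. *Aldh1l1* also had higher means in PKM2-/- in every condition, by log2 0.26, 0.45 and 0.21 at baseline, after sham and after MI, with 95% intervals of -0.38 to 0.90, -0.07 to 0.97 and -0.31 to 0.73. After sham 1 PKM2-/- heart had 311 normalized counts and the other two 133 and 181. For *Psph*, *Shmt1*, *Shmt2*, *Mthfd1* and *Aldh1l2* the differences at baseline, after sham and after MI lay between -0.18 and 0.21.

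**Figure D4:**
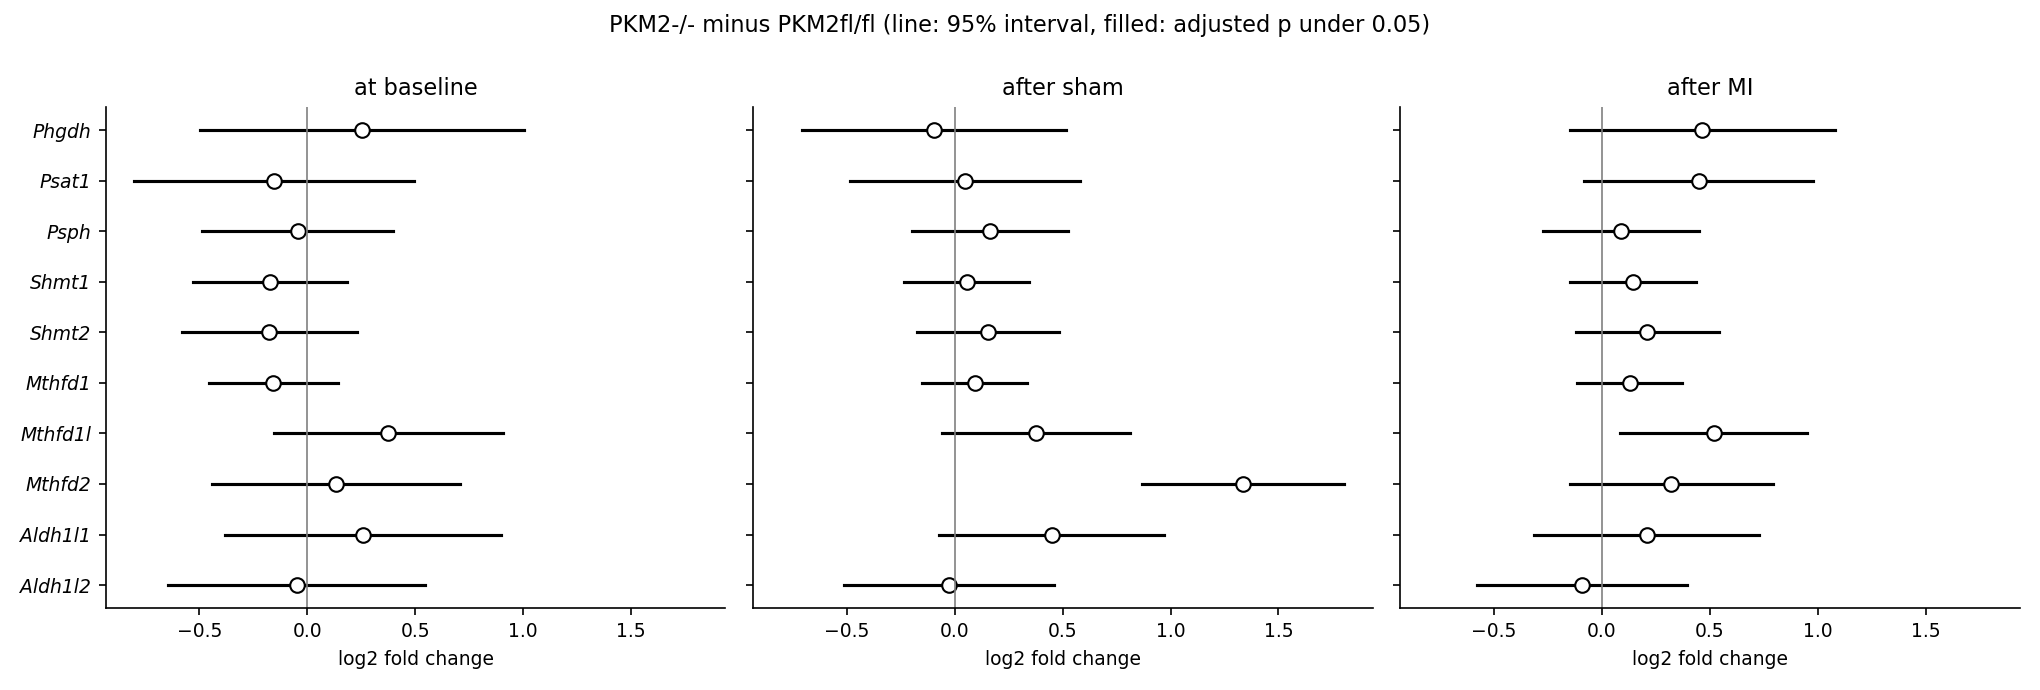
Log2 fold change of PKM2-/- against PKM2fl/fl (x axis) for each gene (y axis) at baseline, after sham and after MI; lines are 95% intervals, and filled points would have an adjusted p under 0.05. All points are open, and *Mthfd2* after sham stands apart at 1.34 with an interval of 0.87 to 1.81.

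The pathways that supply or use one-carbon units were read from 9 further gene lists holding 82 gene names, of which 72 passed the filter. After MI 29 rose and 18 fell in PKM2fl/fl, and 35 rose and 18 fell in PKM2-/-, with medians of 0.16 and 0.36 against 0.00 and 0.01 over all genes. As shares of the 72, 40.3% and 48.6% rose and 25.0% fell in each, beside the 24.8% and 28.7% higher and 25.3% and 28.1% lower among all genes, which also stand behind the counts of each list. These totals moved with the scaling. In PKM2fl/fl they were 13 higher and 12 lower with total reads, and 30 and 13 without the rRNA-related loci. In PKM2-/- they were 39 and 2, and 41 and 8. The shares of all genes under those scalings are not given here, so these totals stand without a background. Folate interconversion and thymidylate synthesis had the highest median of the 9 lists, with 4 of 6 tested genes higher in PKM2fl/fl and 5 in PKM2-/-, and none lower. *Tyms*, thymidylate synthase, rose by log2 2.40 and 2.70, and *Mthfs* by 1.56 and 1.89. *Mthfd2l*, a paralog of *Mthfd2*, rose by 0.72 in PKM2-/- (0.28, adjusted p = 0.146, in PKM2fl/fl). Of 5 folate uptake and retention genes 3 rose in each genotype, led by the reduced folate carrier *Slc19a1* at 2.24 and 2.41. *Fpgs* and *Ggh*, which add and remove the glutamate tail of folate, rose by 0.40 and 0.65 in PKM2fl/fl and by 0.59 and 0.74 in PKM2-/-, whereas *Folr2* did not pass (0.16 with adjusted p = 0.474 in PKM2fl/fl, adjusted p = 0.993 in PKM2-/-).

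Among 12 genes of serine and glycine transport and use, 6 rose and 2 fell in PKM2fl/fl, and 6 rose and 3 fell in PKM2-/-. The neutral amino acid carrier *Slc1a4* rose by 2.19 and 1.57, the mitochondrial serine carrier *Sfxn1* by 1.27 and 1.35, *Sfxn3* by 0.81 and 0.94, and *Slc1a5* by 0.47 and 0.60. *Slc38a2* did not pass, at 0.09 and 0.16, and *Sds*, serine dehydratase, fell by 1.55 in PKM2-/- (-0.52, adjusted p = 0.373, in PKM2fl/fl). Counts of *Sds* were low, at 2.89 to 12.7 normalized counts in PKM2-/- MI hearts. Of 5 genes of glycine cleavage and mitochondrial formate use, 4 of the cleavage system and *Mtfmt*, the mitochondrial methionyl-tRNA formyltransferase, none rose and 2 fell in PKM2fl/fl, and 1 rose and 2 fell in PKM2-/-. The median of that list was -0.44 in PKM2fl/fl and -0.19 in PKM2-/-, and 0.32 in PKM2-/- with scaling to total reads. *Dld*, a subunit shared with pyruvate dehydrogenase, fell by 1.36 and 1.39. *Gcsh* fell by 0.58 in PKM2fl/fl (-0.19, adjusted p = 0.197, in PKM2-/-), *Amt* fell by 1.26 in PKM2-/- (-0.44, adjusted p = 0.191, in PKM2fl/fl), and *Gldc* rose by 0.73 in PKM2-/- (0.01, adjusted p = 0.972, in PKM2fl/fl).

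The methionine cycle was split, with 1 of 7 genes higher and 3 lower in PKM2fl/fl and 2 higher and 3 lower in PKM2-/-. *Mtr*, methionine synthase, fell by 0.71 and 1.06, *Mat2b* by 0.67 and 0.55, and *Gnmt* by 1.51 and 1.51, while *Ahcy* rose by 0.57 and 0.62. In transsulfuration and glutathione synthesis 1 of 5 rose and 1 fell in PKM2fl/fl, and 2 rose and 1 fell in PKM2-/-. *Cth*, which makes cysteine from cystathionine, had log2 changes of -1.87 and -2.23, *Gclm* rose by 0.63 and 0.69, and *Gclc* rose by 0.41 in PKM2-/- (0.30, adjusted p = 0.0726, in PKM2fl/fl). Of 5 genes of choline and sarcosine oxidation 2 rose and 2 fell in each genotype. *Pipox* fell by 1.88 and 1.67 and *Aldh7a1* by 0.56 and 0.47 (0.04 with scaling to total reads in PKM2-/-), *Sardh* rose by 0.75 and 0.92, *Dmgdh* rose by 3.04 in PKM2fl/fl (-0.15, adjusted p = 0.888, in PKM2-/-), and *Chdh* rose by 2.73 in PKM2-/- (1.04, adjusted p = 0.32, in PKM2fl/fl). Both counts were low, with *Dmgdh* at 2.05 to 21.1 normalized counts in PKM2fl/fl sham hearts and *Chdh* at 0 to 15.7 in PKM2-/- sham hearts. Without PKM2fl/fl sham replicate 2 the rise of *Dmgdh* was 2.16, without PKM2fl/fl MI replicate 1 it was 2.22, and without PKM2-/- sham replicate 1 that of *Chdh* was 1.46 and missed the threshold (adjusted p = 0.0517), as it did at 2.27 without PKM2-/- MI replicate 3 (adjusted p = 0.0558).

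Purine synthesis, which takes up formyl groups from folate, showed 4 of 13 genes higher and 6 lower in PKM2fl/fl and 6 higher and 5 lower in PKM2-/-. *Ppat*, the first committed step, fell by 0.71 and 0.94, and *Adssl1*, the muscle adenylosuccinate synthase, by 1.16 and 0.87. The non-muscle form *Adss* rose by 0.98 and 1.32 and *Impdh1* by 0.71 and 0.86. *Prps1* fell by 0.52 in PKM2fl/fl (-0.03, adjusted p = 0.858, in PKM2-/-), and *Prps2* did not pass at 0.07 and 0.08. Of 14 genes of the ATF4 and amino acid response, 8 rose and 2 fell in each genotype. *Asns*, asparagine synthetase, rose by 1.97 and 1.59, *Slc7a5* by 2.01 and 2.00, and the cystine carrier *Slc7a11* by 2.39 and 3.75. *Ddit4* fell by 0.85 in PKM2fl/fl (-0.28, adjusted p = 0.437, in PKM2-/-).

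Of the 66 MI calls of named list genes, 9 missed the threshold when 1 sham or MI library of the same genotype was left out, namely *Fpgs*, *Ggh* and *Ddit4* in PKM2fl/fl, *Gldc*, *Gclc*, *Sds* and *Chdh* in PKM2-/-, and *Pipox* in both, with adjusted p-values of up to 0.153.

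Between genotypes 2 of the 72 genes passed, both after MI, beside 0.967% of all genes. *Cth* was lower in PKM2-/-, at a log2 difference of -1.51 ± 0.34 (adjusted p = 0.0481), and *Ddit4*, a stress-induced inhibitor of mTORC1, was higher by 1.58 ± 0.30 (adjusted p = 0.0319). The *Cth* call was lost in 13 of the 16 fits that left out 1 library, with differences of -1.79 to -1.20, up to an adjusted p of 0.195, and the *Ddit4* call in 5, each without an MI library, with differences of 1.42 to 1.78. With the replicate block both missed the threshold (adjusted p = 0.0747 and 0.0516). Over the same libraries the summed neutrophil markers were 3146 to 4008 in PKM2-/- and 1102 to 1955 in PKM2fl/fl MI hearts, without overlap, though none of the 4 tested markers passed. Their part in these calls was not tested. *Dmgdh* had 67.6 to 78.8 normalized counts in PKM2-/- and 2.35 to 5.31 in PKM2fl/fl baseline hearts, and 46.6 to 131 and 2.05 to 21.1 after sham. Its log2 differences of 4.01 ± 0.99 and 2.80 ± 0.81 did not pass (adjusted p = 0.684 and 0.216), and after MI, at 31.6 to 93.4 and 23.6 to 266, the difference was -0.39 (adjusted p = 0.852). *Gldc* after MI missed the threshold at 1.12 (adjusted p = 0.0628), and *Asns* differed by 0.62, 0.53 and 0.15 at baseline, after sham and after MI (adjusted p = 1, 0.401 and 0.772). In PKM2-/- hearts 9 of the 72 genes were higher after sham than at baseline, and none was lower, beside 3.48% of all genes called higher. Of these, 5 were in the ATF4 and amino acid response list of 14. In PKM2fl/fl hearts limma-trend called none of the 72 for that step, with 12 at an unadjusted p under 0.05 and 0.165% of all genes called higher. The ATF4 list had the median log2 changes 0.46 in PKM2fl/fl, with 6 of 14 at an unadjusted p under 0.05, and 0.47 in PKM2-/-. The share of all genes at that unadjusted level is not given here, for this count or for the 12 of 72. The difference between genotypes in that step was called for none of the 14, with a median of 0.00 and 0 at an unadjusted p under 0.05. Over the step in PKM2-/- the summed neutrophil markers went from 114 to 160 up to 897 to 1150, proliferation markers from 224 to 403 up to 677 to 1011, and macrophage and monocyte markers from 3605 to 4973 up to 6747 to 8463. Their part was not tested.

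**Figure D5:**
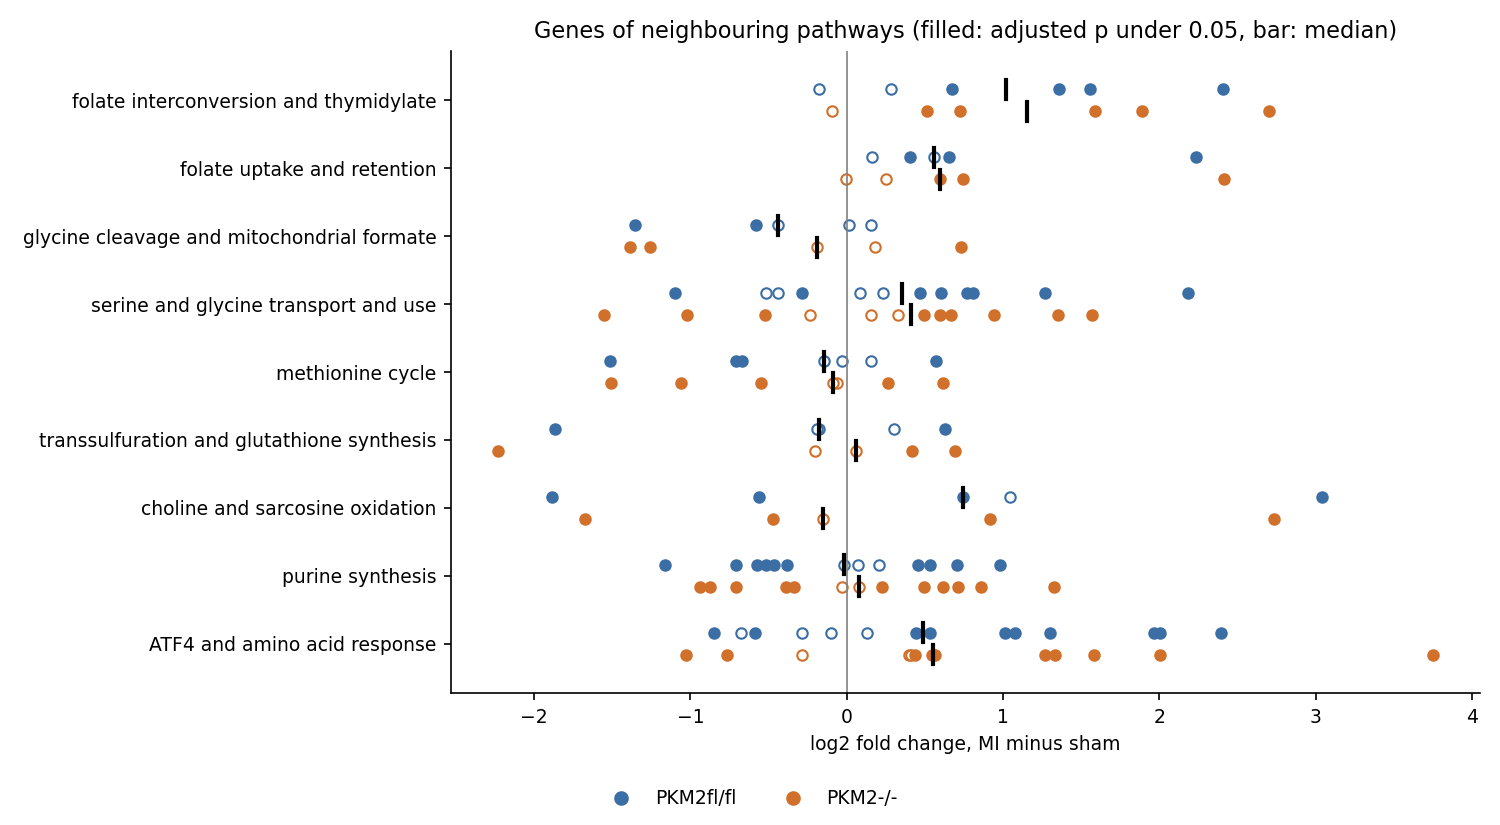
Log2 fold change of MI against sham (x axis) of every tested gene in 9 neighbouring pathway lists (y axis), for PKM2fl/fl and PKM2-/- hearts; points are genes, filled where the adjusted p is under 0.05, and black bars are list medians. Folate interconversion and thymidylate synthesis has medians of 1.02 and 1.15, while purine synthesis spreads to both sides of 0 with medians of -0.02 and 0.08.

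For each gene called after MI, the tested genes with the nearest profile over the 16 libraries were found by the root mean square difference of centred log2 values. Nearest to *Phgdh* were *Sec61b* and *Armcx2* (0.256 and 0.26 log2 units), to *Psat1* *Gm21954* and *Gla* (0.255 each), and to *Mthfd1l* *Chst1* and *Gm8013* (0.202 and 0.242). *Mthfd2* had the loosest neighbours, *Ecm1* and *Has1* (0.342 and 0.349). *Aldh1l2* lay nearest to *Sass6* and *Rap2a* (0.197 and 0.203), *Aldh1l1* to *Bnip3* and *Retreg1* (0.223 and 0.232), and *Shmt1*, which varied least of the 7, to *Uckl1* and *Fntb* (0.115 and 0.135). These distances describe likeness over the libraries and were not tested.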

How the data were processed

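Total RNA was depleted of rRNA and sequenced. Alignment was to mm10 (HISAT2), counting used featureCounts, and strand and multi-mapping settings are not given in the sources used here. The authors deposited signal values, that is, reads of a gene over the size factor that DESeq2 set for its library. The authors also deposited their baseline log2 fold change, a Wald score and a p-value, which were not used. Whole reads were recovered from the signal (100.0% of values whole within 0.01 after rounding).

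Genes with a mean normalized count of at least 10 over the 16 libraries (20576 genes) were fitted with limma 3.58.1 (R 4.3.3, trend) on log2 of the value plus a pseudocount of 1, with 1 mean for each of the 6 groups. Ratios were compared by exact permutation tests (Python 3.11.15). edgeR 4.0.16 and DESeq2 1.42.0 on the recovered reads, other scalings, filters and pseudocounts, the groups of a comparison alone, a replicate block and each library left out served as alternatives. Counts were simulated for MI against sham in PKM2fl/fl over 20451 genes, with 200 genes changed and the same dispersion for every gene. There limma recovered 3 of 50 genes changed 1.5-fold, 34 of 50 changed 2-fold and 49 of 50 changed 3-fold. It made 3 false calls over all folds, and DESeq2 made 16. In the data 24.8% of genes were called higher and 25.3% lower in this comparison, so recovery there can differ.

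The 10 genes and the other lists were chosen with earlier results of these data known. All 10 are named throughout. From each other list the text names up to 3 genes with the smallest p in each MI comparison and up to 1 in each genotype comparison, giving their MI values and, where a call or near-call is at issue, genotype values. Some genes that this rule names are not reported here. The nearest-profile genes were named by rank, 2 per gene called after MI. *Pkm* was named as the target. *Cct6a*, *Ndufa4l2* and *Gm45901* were named for exon bases shared with a member. Other overlaps lie on the opposite strand, among them 1056 bases of *Aldh1l2* with *Nopchap1* and 346 of *Shmt1* with *Smcr8*. *Mthfd1* shares 121 bases with *Gm34868* and 335 with *Gm47525*, and *Mthfd1l* and *Aldh1l1* also have such overlaps. The limit on strand given for *Psph* holds for these too. Replicate numbers pair no animals, since each library came from its own mouse, and the labels do not say whether they mark a batch. Markers of 9 cell types or states were summed, of which atrial, endothelial, fibroblast and lymphocyte sums are not otherwise printed.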

Additional observations from a re-analysis of the deposited data

How the results depend on the processing

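The counts of genes called after MI, 7 of 10 in each genotype, ran from 5 to 9 over the alternatives run. Shares of all genes are given only for the main fit and the 2-fold requirement. The replicate block left the MI counts at 7 and 7 and changed no call of the 10. In the other lists it ended the genotype calls of *Cth* and *Ddit4* after MI (adjusted p = 0.0747 and 0.0516). The fits of those list genes with the block or without 1 library were chosen after seeing the data. Deviations of same-numbered libraries correlated at a median of -0.0266 (36 pairs, from -0.196 to 0.126), and those of different numbers at 0.013 (70 pairs). In groups of 2 or 3 such medians do not show whether the numbers mark a shared batch. The genotype count after sham went from 0 to 1 with at least 10 reads in every library and to 1 with DESeq2, and over the libraries left out in turn it ran from 0 to 1. The count averaged over conditions went from 0 to 1 with DESeq2, and from 0 to 2 over the libraries left out. With libraries left out the genotype count after MI ran from 0 to 1, and the PKM2-/- count for sham against baseline from 1 to 0. *Shmt1* in PKM2-/- reversed from -0.4802 to 0.0302 with scaling to total reads. The cause was not tested. With libraries left out, the genotype difference in *Shmt2* to *Shmt1* after sham (log2 units) ran from -0.0110 to 0.2001 and that in *Aldh1l2* to *Aldh1l1* after MI from -0.5382 to 0.0225. The groups of a comparison alone could not give the averaged effect, which uses all groups. The smallest recovered count on a gene, 16 reads, and groups of 2 or 3 limit what could be called.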
